A study of Homo sapiens with 12 samples.

Results

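The 36 genes described here carry glucose into the cell, break it down to pyruvate, and then either turn pyruvate into lactate for export or admit it to the mitochondrion. They were chosen by name and step, though with earlier results of these data known, and are 36 of 57773 genes in the deposited tables. Their RNA was read in AsPC-1, a human cell line from a pancreatic ductal adenocarcinoma. Total RNA was freed of rRNA and sequenced in 12 libraries, 3 for each of 4 groups. SiBACH1 cells received small interfering RNA (siRNA) against *BACH1* for 24 h, and siCont cells served as their controls. SgBACH1 cells were infected with a lentiCRISPR v2 virus that delivers Cas9 with a guide to *BACH1*, and sgCont cells served as controls of the knockout. Infected cells were selected in 10 µg/ml puromycin, and all cells grew in the same RPMI medium with serum. Not given in the sources used here are the sequences of the siRNA, the control siRNA and the control guide, and whether the knockout cells are a clone or a pool. *BACH1* is a heme-sensing transcriptional repressor that competes with the activator NRF2 for DNA. In lung cancer cells it has been reported to raise *HK2* and *GAPDH* transcription, and in breast cancer cells to act on pyruvate dehydrogenase kinase, which gives the comparisons their question.

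Glycolysis runs one way at hexokinase, which traps glucose inside the cell, at phosphofructokinase, which spends a further ATP, and at pyruvate kinase, which releases pyruvate. Phosphofructokinase is switched by fructose-2,6-bisphosphate, which the bifunctional PFKFB enzymes make and destroy. Lactate dehydrogenase and the monocarboxylate transporters remove pyruvate as lactate, while pyruvate dehydrogenase, held off by PDK kinases and restored by a phosphatase, sends it into the citrate cycle. Pancreatic tumours grow in poorly perfused tissue, and many of these genes are known targets of the hypoxia-inducible factors.

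The libraries held 13099706 to 21478886 counts, and levels are given as CPM, counts scaled by TMM to a common library size. *BACH1* RNA stood at 24.7, 27.5 and 24.6 CPM in siBACH1 libraries, against 195.8, 289.1 and 195.0 CPM in siCont libraries (log2 fold change -3.15 ± 0.17, SE, edgeR adjusted p = 4.09e-06). It stood at 219.9, 199.5 and 186.5 CPM in sgBACH1 libraries, against 270.1, 294.8 and 279.3 CPM in sgCont libraries (log2 fold change -0.48 ± 0.077, edgeR adjusted p = 4.48e-05). In both experiments the groups were separate, and the exact two-sided permutation p was 0.1, the smallest that 3 against 3 libraries allow. RNA level does not read a frameshift, so it does not by itself measure loss of the protein in sgBACH1 cells. Epithelial marker genes *EPCAM*, *KRT8*, *KRT18*, *KRT19*, *CDH1* and *MUC1* were detected in every library and summed to 12774 to 13122 CPM in siBACH1 and 11277 to 12857 CPM in siCont libraries. In the knockout they summed to 12167 to 13659 CPM in sgBACH1 and 18892 to 20610 CPM in sgCont libraries, with *KRT8*, *KRT18* and *KRT19* lower and *EPCAM*, *CDH1* and *MUC1* higher in every sgBACH1 library than in any sgCont library. Among 10 genes of fibroblasts, blood and endothelium, only *LUM* and *LYZ* exceeded 3 CPM in any library, while *COL1A1*, *DCN*, *PTPRC* and *CD3E* stayed at or near 0. *LYZ* stood at 809.0, 742.1 and 662.9 CPM in sgBACH1 libraries, against 69.9, 54.7 and 54.9 CPM in sgCont libraries. *LUM* stood at 50.7, 51.3 and 45.2 CPM in sgBACH1 libraries, against 114, 137 and 121 CPM in sgCont libraries. With siRNA *LUM* was higher and went the other way, at 336, 355 and 353 CPM in siBACH1 libraries, against 296, 302 and 291 CPM in siCont libraries. The part of these marker differences in the results of either experiment was not tested. In bulk RNA, fewer cells of a kind and less RNA per cell cannot be told apart. The labels do not say whether replicates were separate cultures, and p-values therefore reflect how far these libraries scatter.

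SiCont replicate 2 stood apart from its group. Its counts differed from those of replicates 1 and 3 by a chi-square of 30.6 and 36 per degree of freedom, against 8.92 between replicates 1 and 3 and 6.91 to 14.2 within the other groups. Its 20 hypoxia factors and markers outside the 36 genes summed to 1527 CPM, against 1049 and 941 CPM in the other two siCont libraries. *DDIT4* stood at 374.5 CPM there and *VEGFA* at 120.7 CPM, against 81.1 to 92.4 CPM and 29.2 to 32.8 CPM in the other two. *NDRG1* was also higher there, at 204.5 CPM against 94.8 and 62.0 CPM. The list did not move as a whole. *CA9* was lower there, at 39.6 CPM against 77.4 and 71.5 CPM, as was *HIF1A*, at 68.5 CPM against 73.8 and 74.1 CPM. It was the highest siCont library for 18 of the 36 genes, and all 14 siRNA calls of these genes held without it. Among those called, the log2 fold change without it was 0.58 for *HK2*, 0.57 for *PFKFB3*, -1.12 for *PFKFB4*, 0.63 for *FBP1*, -0.47 for *SLC16A3* and 0.33 for *DLAT*. Larger shifts, and calls gained without it, are given beside the gene. Its part in these results beyond that was not tested.

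Per kilobase of exon, *GAPDH* had the highest level of the 36 genes in each group's mean. *GAPDH* averaged 1293 ± 53.5 in siBACH1, 1196 ± 37.7 in siCont, 1321 ± 21.6 in sgBACH1 and 1110.2 ± 29.4 in sgCont libraries (CPM per kb, SD, n = 3). Pyruvate kinase gene *PKM*, aldolase gene *ALDOA*, enolase gene *ENO1* and lactate dehydrogenase gene *LDHA* had group means between 141 and 488 CPM per kb, and *PGK1* between 76.9 and 180 CPM per kb. *SLC2A1*, which encodes the glucose transporter GLUT1, averaged 47.5 ± 2.50 in siBACH1, 76.7 ± 19.3 in siCont, 114 ± 4.42 in sgBACH1 and 38.1 ± 4.55 in sgCont libraries. Summed in CPM, the 36 genes came to 1.22% of the TMM-scaled library size in siBACH1, 1.35% in siCont, 1.67% in sgBACH1 and 1.41% in sgCont libraries. A pair of genes known from other tissues was almost silent. *SLC2A3*, the gene of glucose transporter GLUT3, had 0 to 5 counts per library, and *LDHB*, whose product favours the conversion of lactate to pyruvate, had 0 to 3. Neither was tested, so *LDHA* supplied nearly all RNA of the *LDHA* and *LDHB* pair in each group. *PDK3* had too few counts to be tested in the knockout. Copies of these genes could share reads: the 64 annotated pseudogenes of *GAPDH* held 1.79% to 2.31% of the counts of gene and copies together, those of *TPI1* 2.55% to 4.41%, and those of the other genes tested at most 2.75%.

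In siBACH1 cells, RNA of the glucose transporter gene *SLC2A1*, hexokinase *HK1*, phosphofructokinase *PFKP*, pyruvate kinase *PKM*, lactate dehydrogenase *LDHA* and lactate exporter *SLC16A3* was lower than in siCont cells, while *HK2*, *PFKFB3*, *FBP1* and *DLAT* were higher. Of 34 genes tested, 10 fell and 4 rose at an adjusted p below 0.05 (edgeR quasi-likelihood test, Benjamini-Hochberg over all genes tested). That is 41.2% of the genes tested here, against 23.9% of all 14591 genes tested, of which 10.9% rose and 13% fell. The 3 siBACH1 libraries lay wholly above or below the 3 siCont libraries for 21 genes, or 61.8%, against 42.6% of all genes tested. The median log2 fold change was -0.087, against 0.0050 over all genes tested. The largest change was that of *PFKP*, which fell to 0.303 of its siCont level.

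At entry, *SLC2A1* fell, with 237, 223 and 214 CPM in the siBACH1 libraries, against 349, 459.5 and 279 CPM in the siCont libraries (log2 fold change -0.70 ± 0.16, edgeR adjusted p = 0.0115). All siBACH1 libraries lay below all siCont libraries, of which replicate 2 was the highest. Without siCont replicate 2 the log2 fold change was -0.49 ± 0.072 (edgeR adjusted p = 1.07e-05), and without siBACH1 replicate 2 or 3 the call was lost by a small margin (edgeR adjusted p = 0.0506 and 0.0583). *HK1*, the broadly expressed hexokinase, fell, with 29.1, 28.3 and 34.1 CPM in the siBACH1 libraries, against 55.7, 46.2 and 54.9 CPM in the siCont libraries (log2 fold change -0.78 ± 0.11, edgeR adjusted p = 0.00123). *HK2*, the inducible hexokinase of many tumours, rose, with 39.1, 41.2 and 40.2 CPM in the siBACH1 libraries, against 26.6, 35.5 and 26.9 CPM in the siCont libraries (log2 fold change 0.43 ± 0.13, edgeR adjusted p = 0.0356). Neither hexokinase showed overlap between the groups, and they went in opposite directions. The *HK2* call was lost when any siBACH1 library, siCont replicate 1 or siCont replicate 3 was left out, at edgeR adjusted p from 0.0968 to 0.125. *GPI*, which interconverts glucose and fructose phosphates, had 198, 201 and 194 CPM in the siBACH1 libraries, against 197, 193 and 178 CPM in the siCont libraries and did not pass the test (edgeR adjusted p = 0.614).

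*PFKP*, the platelet-type phosphofructokinase and per kilobase of exon the most abundant of the 3 in each group's mean, stood at 146, 150.1 and 136 CPM in the siBACH1 libraries, against 472, 490.4 and 457 CPM in the siCont libraries (log2 fold change -1.72 ± 0.076, edgeR adjusted p = 2.48e-06). The siBACH1 libraries lay close together and far below every siCont library. *PFKL*, the liver type, ranged from 158 to 163 CPM in siBACH1 libraries and from 118 to 149 CPM in siCont libraries, and *PFKM*, the muscle type, from 107 to 115 CPM in siBACH1 libraries and from 86.3 to 113 CPM in siCont libraries. Neither passed the test (edgeR adjusted p = 0.103 and 0.421).

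Of the PFKFB enzymes, *PFKFB3*, whose kinase activity far exceeds its phosphatase activity, rose, with 44.4, 44.6 and 46.9 CPM in the siBACH1 libraries, against 32.2, 34.2 and 28.7 CPM in the siCont libraries (log2 fold change 0.51 ± 0.10, edgeR adjusted p = 0.00585). *PFKFB4* fell at a low level, with 2.84, 1.35 and 1.46 CPM in the siBACH1 libraries, against 5.10, 6.75 and 2.98 CPM in the siCont libraries (log2 fold change -1.40 ± 0.39, edgeR adjusted p = 0.0298). Both pairs of groups were separate, but *PFKFB4* rests on few counts and lost its call without siCont replicate 1, siBACH1 replicate 2 or siBACH1 replicate 3 (edgeR adjusted p = 0.0729, 0.109 and 0.115). *PFKFB2* had 52.2, 49.7 and 56.8 CPM in the siBACH1 libraries, against 56.1, 83.8 and 62.2 CPM in the siCont libraries (log2 fold change -0.35 ± 0.15, edgeR adjusted p = 0.113), with the groups overlapping and a log2 fold change of -0.17 without siCont replicate 2. *FBP1*, the gluconeogenic phosphatase that opposes phosphofructokinase, rose, with 109, 117 and 109.9 CPM in the siBACH1 libraries, against 69.9, 89.6 and 74.3 CPM in the siCont libraries (log2 fold change 0.52 ± 0.11, edgeR adjusted p = 0.00707). All siBACH1 libraries of *FBP1* lay above all siCont libraries, though 16.3% of its exon sequence is also covered by exons of an RNA on the opposite strand.

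From aldolase to enolase 1 gene of 9 changed. *ALDOC*, a minor aldolase best known from brain, fell, with 11.7, 11.6 and 11.9 CPM in the siBACH1 libraries, against 24.8, 18.2 and 18.5 CPM in the siCont libraries (log2 fold change -0.81 ± 0.15, edgeR adjusted p = 0.00461). The abundant *ALDOA* had 1466, 1479 and 1391 CPM in the siBACH1 libraries, against 1565, 1545 and 1403 CPM in the siCont libraries (edgeR adjusted p = 0.569), and 42.3% of its exon sequence overlaps another gene on the same strand. These *ALDOA* libraries overlapped, while those of *ALDOC* did not. *TPI1*, which balances the triose phosphates, had 286, 285 and 274 CPM in the siBACH1 libraries, against 316, 294 and 299 CPM in the siCont libraries (edgeR adjusted p = 0.282). *GAPDH* had 4016, 3849 and 3697 CPM in the siBACH1 libraries, against 3696, 3503 and 3499 CPM in the siCont libraries (log2 fold change 0.11 ± 0.064, edgeR adjusted p = 0.264). *PGK1*, which makes the first ATP of the pathway, had 785, 787 and 800.1 CPM in the siBACH1 libraries, against 954, 1185 and 833 CPM in the siCont libraries (log2 fold change -0.33 ± 0.12, edgeR adjusted p = 0.0713). The siBACH1 libraries lay below the siCont libraries for *TPI1* and *PGK1* and above them for *GAPDH*, without reaching the threshold. *PGK1* was again highest in siCont replicate 2, and without that library it passed the test at a smaller log2 fold change of -0.18 ± 0.060 (edgeR adjusted p = 0.0204). *PGAM1* ranged from 68.5 to 75.9 CPM in siBACH1 libraries and from 64.2 to 83.6 CPM in siCont libraries. *ENO1* had 1094, 1105 and 1064 CPM in the siBACH1 libraries, against 1183, 1183 and 1155 CPM in the siCont libraries (edgeR adjusted p = 0.216), and *ENO2* and *ENO3* stayed under 4 CPM in all 6 libraries.

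From pyruvate kinase to lactate export, 3 genes fell and the transporter gene *SLC16A1* did not pass the test. *PKM* fell by a small step, with 2069, 2106 and 2002 CPM in the siBACH1 libraries, against 2362, 2448 and 2410.3 CPM in the siCont libraries (log2 fold change -0.23 ± 0.062, edgeR adjusted p = 0.0249). *LDHA* fell more, with 875, 878 and 878 CPM in the siBACH1 libraries, against 1373, 1269 and 1274 CPM in the siCont libraries (log2 fold change -0.58 ± 0.065, edgeR adjusted p = 0.000278). In both genes the groups were separate, and the *LDHA* libraries of siBACH1 cells differed from each other by under 3 CPM. The call for *PKM* was lost when any 1 of the siBACH1 libraries was left out (edgeR adjusted p = 0.0866, 0.0641 and 0.0994). *SLC16A3*, the gene of the lactate exporter MCT4, fell, with 51.0, 49.6 and 48.0 CPM in the siBACH1 libraries, against 69.4, 80.2 and 67.1 CPM in the siCont libraries (log2 fold change -0.55 ± 0.097, edgeR adjusted p = 0.00349). *SLC16A1*, the gene of the more widespread MCT1, had 197, 189.9 and 205 CPM in the siBACH1 libraries, against 190.0, 177 and 193 CPM in the siCont libraries (log2 fold change 0.074 ± 0.074, edgeR adjusted p = 0.514). The *SLC16A3* groups were separate and those of *SLC16A1* overlapped.

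At the mitochondrial entrance, *PDK1*, a kinase that switches pyruvate dehydrogenase off and is itself a hypoxia target, fell, with 28.9, 34.9 and 32.9 CPM in the siBACH1 libraries, against 46.8, 68.9 and 42.5 CPM in the siCont libraries (log2 fold change -0.71 ± 0.18, edgeR adjusted p = 0.0175). SiCont replicate 2 was the highest library, and without it the log2 fold change was -0.47 ± 0.10 (edgeR adjusted p = 0.000731). Without siBACH1 replicate 1 or 3 the *PDK1* call was lost (edgeR adjusted p = 0.0874 and 0.0641). *PDHB*, the beta subunit of the first enzyme of the complex, fell, with 36.8, 38.5 and 42.3 CPM in the siBACH1 libraries, against 63.2, 56.6 and 61.3 CPM in the siCont libraries (log2 fold change -0.63 ± 0.094, edgeR adjusted p = 0.00142). *DLAT*, the acetyltransferase core of the complex, rose slightly, with 105, 107 and 103 CPM in the siBACH1 libraries, against 80.3, 92.5 and 85.5 CPM in the siCont libraries (log2 fold change 0.28 ± 0.084, edgeR adjusted p = 0.0378). Both subunits had separate groups, and they moved in opposite directions. The *DLAT* call was lost without any siBACH1 library, siCont replicate 1 or siCont replicate 3, at edgeR adjusted p from 0.0961 to 0.145. *PDHA1* stood at 68.2 to 73.6 CPM over all 6 libraries and *PDHX* at 32.1 to 43.9 CPM. *PDK2* had 16.3, 13.9 and 12.4 CPM in the siBACH1 libraries, against 14.1, 11.5 and 18.3 CPM in the siCont libraries, and 38.6% of its exon sequence lies opposite another gene's exons. *PDP1*, the activating phosphatase, had 14.6, 16.9 and 21.5 CPM in the siBACH1 libraries, against 22.0, 38.8 and 17.9 CPM in the siCont libraries (log2 fold change -0.57 ± 0.27, edgeR adjusted p = 0.165), where siCont replicate 2 was again the highest and the log2 fold change without it was -0.17. The carrier genes *MPC1* and *MPC2*, whose products bring pyruvate across the inner membrane, did not pass the test (edgeR adjusted p = 0.173 and 0.738). *MPC1* had 13.8, 15.4 and 15.7 CPM in the siBACH1 libraries, against 10.6, 14.3 and 11.1 CPM in the siCont libraries, and without siCont replicate 2 it passed, at a log2 fold change of 0.46 ± 0.15 (edgeR adjusted p = 0.0184). *MPC2* had 36.7, 39.6 and 40.5 CPM in the siBACH1 libraries, against 46.1, 34.1 and 41.5 CPM in the siCont libraries.

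**Figure D1:**
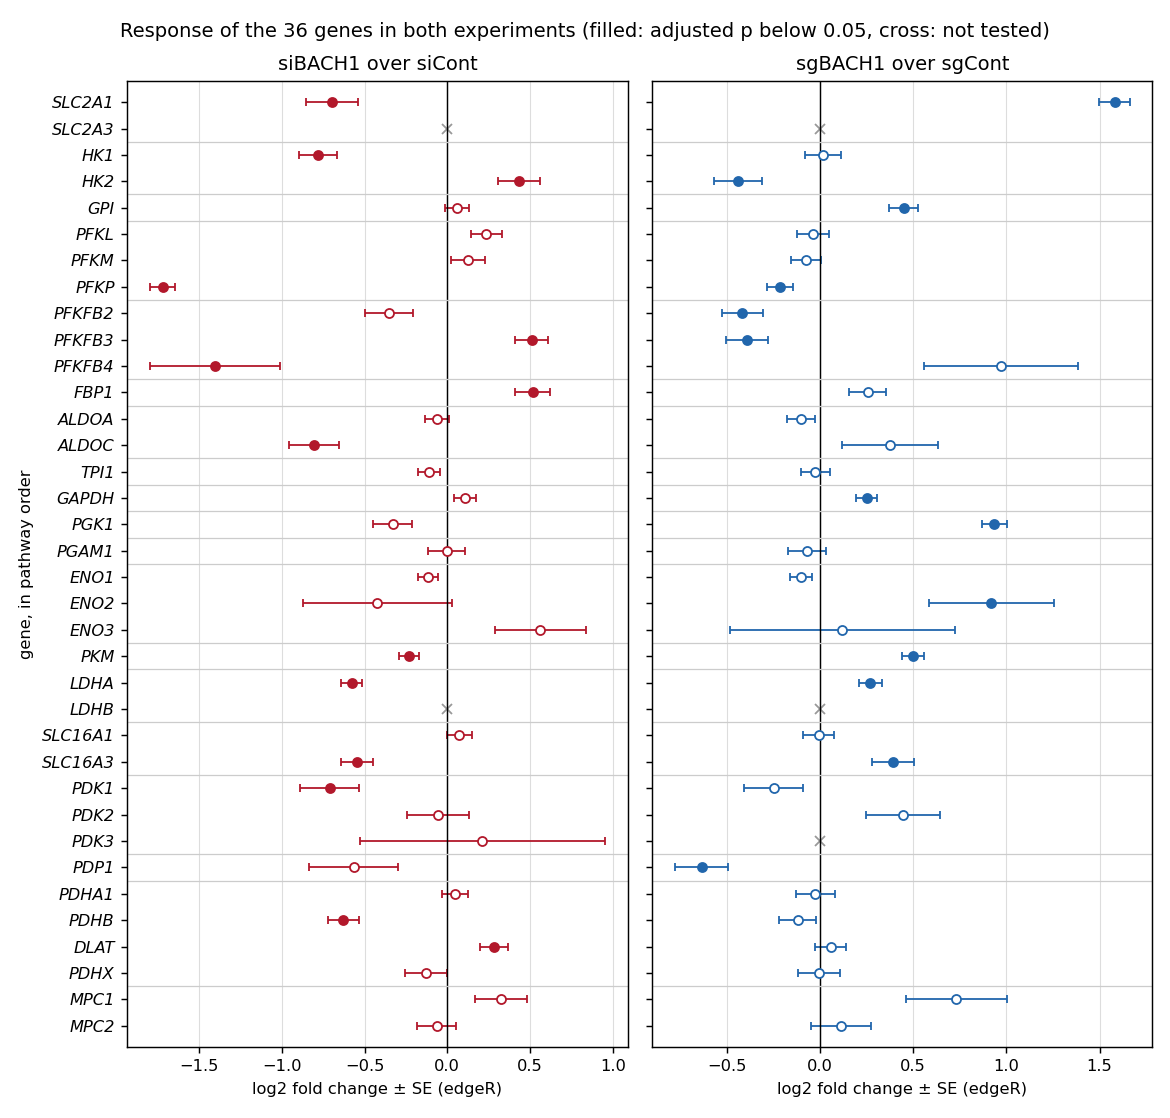
Log2 fold change with its SE for each of the 36 genes, in pathway order from glucose uptake at the top to the pyruvate carrier at the bottom, for siBACH1 over siCont (left) and sgBACH1 over sgCont (right). Filled points passed an adjusted p below 0.05 (14 genes on the left, 13 on the right), open points did not, and crosses at 0 mark genes not tested. *PFKP* at -1.72 on the left and *SLC2A1* at 1.58 on the right lie farthest from 0.

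In sgBACH1 cells *SLC2A1* rose 2.99-fold, and *PGK1*, *PKM*, *LDHA* and *SLC16A3* rose as well, while *HK2* and *PFKFB3* fell. Of 33 genes tested, 8 rose and 5 fell, which is 39.4%, against 23.5% of all 14469 genes tested, of which 11.3% rose and 12.3% fell. The 3 sgBACH1 libraries lay wholly above or below the 3 sgCont libraries for 18 genes, or 54.5%, against 36.5% of all genes tested. The median log2 fold change was 0.017, against 0.0055 over all genes tested. Summed over the 36 genes, sgBACH1 libraries held 16683 ± 117 CPM and sgCont libraries 14065 ± 666 CPM (SD, n = 3 each).

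*SLC2A1* rose, with 551, 514 and 548 CPM in the sgBACH1 libraries, against 156, 185 and 199 CPM in the sgCont libraries (log2 fold change 1.58 ± 0.082, edgeR adjusted p = 3.02e-13). Every sgBACH1 library lay far above the highest sgCont library. *HK1* had 87.2, 80.9 and 77.0 CPM in the sgBACH1 libraries, against 77.2, 78.1 and 87.1 CPM in the sgCont libraries (log2 fold change 0.017 ± 0.095, edgeR adjusted p = 0.933), and the groups overlapped. *HK2* fell, with 33.1, 36.7 and 42.9 CPM in the sgBACH1 libraries, against 56.0, 51.2 and 45.9 CPM in the sgCont libraries (log2 fold change -0.44 ± 0.13, edgeR adjusted p = 0.0129). Its groups were separate, with sgBACH1 replicate 3 close under sgCont replicate 3, and the call was lost without sgBACH1 replicate 1, sgBACH1 replicate 2 or sgCont replicate 1 (edgeR adjusted p = 0.103, 0.0647 and 0.0687). *GPI* rose, with 304, 319.7 and 329 CPM in the sgBACH1 libraries, against 217, 219 and 262 CPM in the sgCont libraries (log2 fold change 0.45 ± 0.079, edgeR adjusted p = 0.000116). All sgBACH1 libraries of *GPI* lay above all sgCont libraries.

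*PFKP* fell by a small step, with 546, 589.9 and 554 CPM in the sgBACH1 libraries, against 664, 602 and 695 CPM in the sgCont libraries (log2 fold change -0.21 ± 0.069, edgeR adjusted p = 0.0259). The groups were separate by a narrow gap, and the call was lost without sgBACH1 replicate 1 or 3 or sgCont replicate 1 or 3, at edgeR adjusted p from 0.0803 to 0.126. *PFKL* ranged from 148 to 163 CPM in sgBACH1 libraries and from 147 to 181 CPM in sgCont libraries, and *PFKM* from 136 to 154 CPM in sgBACH1 libraries and from 144 to 155 CPM in sgCont libraries. Neither passed the test. *PFKFB3* fell, with 42.7, 44.5 and 50.2 CPM in the sgBACH1 libraries, against 60.7, 62.5 and 57.2 CPM in the sgCont libraries (log2 fold change -0.39 ± 0.11, edgeR adjusted p = 0.0115). *PFKFB2*, whose heart form responds to insulin signalling, fell as well, with 39.7, 41.8 and 40.0 CPM in the sgBACH1 libraries, against 55.3, 53.0 and 53.9 CPM in the sgCont libraries (log2 fold change -0.41 ± 0.11, edgeR adjusted p = 0.00745). Both were separate between the groups, and the *PFKFB3* call was lost without sgBACH1 replicate 1 or 2 (edgeR adjusted p = 0.0767 and 0.0641). *PFKFB4* had 5.18, 6.45 and 4.66 CPM in the sgBACH1 libraries, against 2.65, 1.13 and 4.47 CPM in the sgCont libraries (log2 fold change 0.97 ± 0.41, edgeR adjusted p = 0.0977). *FBP1* had 92.2, 84.0 and 84.8 CPM in the sgBACH1 libraries, against 80.6, 64.6 and 73.4 CPM in the sgCont libraries (log2 fold change 0.26 ± 0.10, edgeR adjusted p = 0.0672). Both lay higher in all sgBACH1 libraries than in all sgCont libraries without passing the test. The log2 fold change of *PFKFB4* was 0.61 without sgCont replicate 2 and 1.5 without sgCont replicate 3, where it passed (edgeR adjusted p = 0.0239).

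Between aldolase and pyruvate kinase, 4 genes rose. *GAPDH* rose slightly, with 3976, 3974 and 3863 CPM in the sgBACH1 libraries, against 3287, 3235 and 3406 CPM in the sgCont libraries (log2 fold change 0.25 ± 0.056, edgeR adjusted p = 0.00138). *PGK1* rose 1.91-fold, with 799, 826 and 807 CPM in the sgBACH1 libraries, against 409, 418 and 445 CPM in the sgCont libraries (log2 fold change 0.94 ± 0.066, edgeR adjusted p = 8.75e-11). *ENO2*, the enolase of neurons that many tumours also express, rose at a low level, with 5.42, 6.83 and 5.82 CPM in the sgBACH1 libraries, against 3.73, 2.76 and 3.04 CPM in the sgCont libraries (log2 fold change 0.92 ± 0.34, edgeR adjusted p = 0.0493). *PKM* rose, with 4143, 4073 and 4329 CPM in the sgBACH1 libraries, against 2909.5, 2765 and 3206 CPM in the sgCont libraries (log2 fold change 0.50 ± 0.061, edgeR adjusted p = 9.34e-07). All 4 had separate groups, but the *ENO2* call stood at the threshold and was lost without any 1 sgBACH1 library, sgCont replicate 2 or sgCont replicate 3, at edgeR adjusted p from 0.0816 to 0.177. *ALDOA* had 1398, 1422 and 1538 CPM in the sgBACH1 libraries, against 1424, 1475 and 1781 CPM in the sgCont libraries and *TPI1* 316, 377 and 382 CPM in the sgBACH1 libraries, against 369, 342 and 382 CPM in the sgCont libraries. *ENO1* had 1517, 1530.2 and 1556 CPM in the sgBACH1 libraries, against 1588, 1637 and 1711 CPM in the sgCont libraries (log2 fold change -0.10 ± 0.06, edgeR adjusted p = 0.263). *ALDOA* and *TPI1* overlapped between the groups and *ENO1* did not, and none of the 3 passed the test. *ALDOC* had 12.7, 10.8 and 10.4 CPM in the sgBACH1 libraries, against 5.19, 10.2 and 10.9 CPM in the sgCont libraries (log2 fold change 0.38 ± 0.26, edgeR adjusted p = 0.336), *PGAM1* ranged from 93.2 to 104 CPM in sgBACH1 libraries and from 85.1 to 117 CPM in sgCont libraries, and *ENO3* stayed under 3 CPM.

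*LDHA* rose, with 1751, 1617 and 1600.4 CPM in the sgBACH1 libraries, against 1381, 1389.6 and 1354 CPM in the sgCont libraries (log2 fold change 0.27 ± 0.061, edgeR adjusted p = 0.00187). *SLC16A3* rose, with 69.6, 67.6 and 64.5 CPM in the sgBACH1 libraries, against 49.2, 44.9 and 59.4 CPM in the sgCont libraries (log2 fold change 0.39 ± 0.11, edgeR adjusted p = 0.0121). Both had separate groups, and the *SLC16A3* call was lost without sgBACH1 replicate 1, sgBACH1 replicate 2 or sgCont replicate 2 (edgeR adjusted p = 0.0694, 0.0531 and 0.0522). *SLC16A1* had 134, 145 and 137 CPM in the sgBACH1 libraries, against 145, 149 and 126 CPM in the sgCont libraries (log2 fold change -0.0069 ± 0.084, edgeR adjusted p = 0.969), with overlap. *PDP1* fell, with 22.1, 22.7 and 19.3 CPM in the sgBACH1 libraries, against 34.7, 32.9 and 31.8 CPM in the sgCont libraries (log2 fold change -0.63 ± 0.14, edgeR adjusted p = 0.0017). *PDK1* had 25.8, 29.1 and 20.9 CPM in the sgBACH1 libraries, against 26.8, 28.05 and 35.0 CPM in the sgCont libraries (log2 fold change -0.25 ± 0.16, edgeR adjusted p = 0.293). The groups were separate for *PDP1* and overlapped for *PDK1*. *PDHB* had 63.5, 60.7 and 61.6 CPM in the sgBACH1 libraries, against 67.6, 70.6 and 63.8 CPM in the sgCont libraries and *DLAT* 123, 115 and 113 CPM in the sgBACH1 libraries, against 110.1, 117 and 110.1 CPM in the sgCont libraries, and neither passed the test (edgeR adjusted p = 0.451 and 0.689). *PDK2* had 18.6, 19.4 and 15.4 CPM in the sgBACH1 libraries, against 10.4, 12.6 and 16.1 CPM in the sgCont libraries (log2 fold change 0.45 ± 0.20, edgeR adjusted p = 0.112), and without sgCont replicate 3 it passed, at 0.63 ± 0.21 (edgeR adjusted p = 0.0396). *MPC1* had 9.87, 9.15 and 8.58 CPM in the sgBACH1 libraries, against 6.48, 6.15 and 3.99 CPM in the sgCont libraries (log2 fold change 0.73 ± 0.27, edgeR adjusted p = 0.0536), a separate pair of groups just short of the threshold. *MPC2* had 40.2, 42.1 and 34.6 CPM in the sgBACH1 libraries, against 30.3, 48.7 and 29.2 CPM in the sgCont libraries (edgeR adjusted p = 0.688), and without sgCont replicate 2 it passed, at a log2 fold change of 0.39 ± 0.14 (edgeR adjusted p = 0.0478). *PDHA1* ranged from 65.3 to 74.8 CPM in sgBACH1 libraries and from 68.0 to 79.6 CPM in sgCont libraries, and *PDHX* from 47.0 to 54.1 CPM in sgBACH1 libraries and from 47.3 to 54.7 CPM in sgCont libraries.

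**Figure D2:**
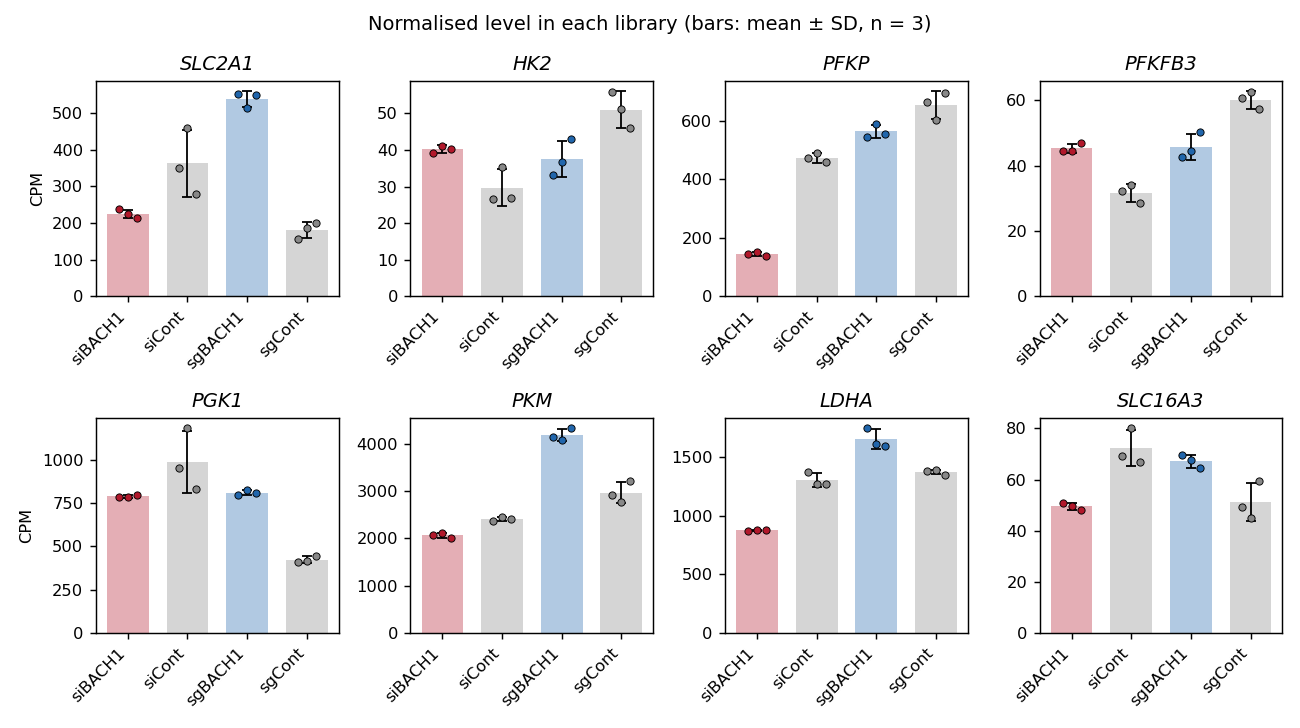
CPM of 8 genes in each library, grouped as siBACH1, siCont, sgBACH1 and sgCont, with points for libraries and bars for the group mean ± SD (n = 3). *SLC2A1*, *PKM*, *LDHA* and *SLC16A3* are lower in siBACH1 than in siCont and higher in sgBACH1 than in sgCont, *HK2* and *PFKFB3* are the other way round, and *PFKP* stands between 136 and 150.1 CPM in siBACH1 libraries.

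Set beside each other, the responses to siRNA and to knockout differed in sign for several genes. Of 33 genes tested in both, 7 passed the test in both, and 6 of these had opposite signs: *SLC2A1*, *PKM*, *LDHA* and *SLC16A3* fell with siRNA and rose with knockout, and *HK2* and *PFKFB3* rose with siRNA and fell with knockout. *PFKP* fell in both. Among all 13845 genes tested in both, 1155 passed in both and 488 of these, or 42.3%, had opposite signs. The experiments share no libraries, and the difference of the responses, siRNA minus knockout, was tested in 1 fit of all 12. It passed for 13 of 34 genes, or 38.2%, with 2 above 0 and 11 below, against 23.6% of all 15644 genes tested, of which 10.6% lay above 0 and 13% below.

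Among genes that passed, the difference was largest for *PFKFB4* at -2.36 ± 0.62 (edgeR adjusted p = 0.00967) and *SLC2A1* at -2.27 ± 0.19 (edgeR adjusted p = 1.82e-07). For *PKM* it was -0.72 ± 0.088 (edgeR adjusted p = 1.25e-05), for *LDHA* -0.84 ± 0.086 (edgeR adjusted p = 1.97e-06) and for *SLC16A3* -0.94 ± 0.15 (edgeR adjusted p = 0.000252). Above 0 lay *PFKFB3* at 0.91 ± 0.15 (edgeR adjusted p = 0.000203) and *HK2* at 0.88 ± 0.19 (edgeR adjusted p = 0.00218). *SLC2A1*, *PKM*, *LDHA* and *SLC16A3* were thus lower with siRNA and higher with knockout, and *HK2* and *PFKFB3* the other way round. *PFKP*, although lower in both, also differed in size, at -1.50 ± 0.10 (edgeR adjusted p = 1.84e-08). *PGK1* differed at -1.26 ± 0.13 (edgeR adjusted p = 3.08e-06), while *ALDOA*, *TPI1*, *PGAM1*, *ENO1*, *SLC16A1* and *PDHA1* had differences between -0.080 and 0.086 that did not pass the test.

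Control levels differed between the experiments, which were counted in separate tables, and this was not tested. *SLC2A1* ranged from 279 to 459.5 CPM in siCont libraries and from 156 to 199 CPM in sgCont libraries. *PGK1* ranged from 833 to 1185 CPM in siCont libraries and from 409 to 445 CPM in sgCont libraries. *LDHA* ranged from 1269 to 1373 CPM in siCont libraries and from 1354 to 1389.6 CPM in sgCont libraries. SiBACH1 levels of *SLC2A1* and *PGK1* therefore remained above those of sgCont cells.

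**Figure D3:**
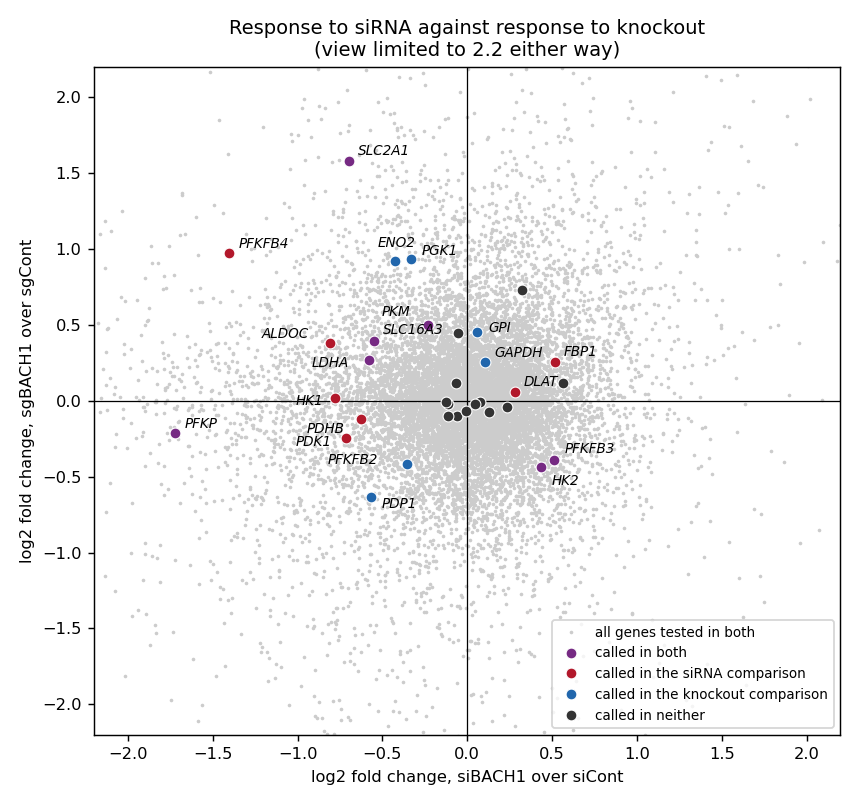
Log2 fold change of siBACH1 over siCont (x axis) against that of sgBACH1 over sgCont (y axis), with the 33 genes tested in both as coloured points over all 13845 genes tested in both in grey. Of the 7 purple points, called in both, *SLC2A1*, *PKM*, *LDHA* and *SLC16A3* lie upper left, *HK2* and *PFKFB3* lower right, and *PFKP* lower left.

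Isoform shares within a step, computed per kilobase of exon, are given as a description and were not tested. Each step counts only the genes described above, not the other isoforms taken up below. *PFKP* made up 47.3% ± 1.72 in siBACH1 and 77.1% ± 2.76 in siCont libraries of phosphofructokinase RNA, and 75.8% ± 0.33 in sgBACH1 and 77.7% ± 1.35 in sgCont libraries. Of *HK1* and *HK2* RNA together, *HK1* made up 42.2% ± 2.59 in siBACH1 and 62.9% ± 6.30 in siCont libraries. It made up 67.7% ± 4.21 in sgBACH1 and 60.4% ± 3.87 in sgCont libraries. Of the pair, *HK2* was thus the larger share in siBACH1 cells. With the length of the longest transcript in place of all exons, *HK1* stayed the larger of the pair at 52.2% in siBACH1 cells. The related gene *HKDC1* was left out of these shares. It had more CPM than either in every library, at 293 to 310 CPM in siBACH1 and 200 to 410 CPM in siCont libraries. It had 241 to 278 CPM in sgBACH1 and 204 to 224 CPM in sgCont libraries. *PFKFB3* made up 57.4% ± 1.27 in siBACH1 and 41.5% ± 3.94 in siCont libraries of the PFKFB set, and 60.6% ± 2.71 in sgBACH1 and 63.1% ± 2.31 in sgCont libraries. *SLC16A1* made up 87.1% ± 0.667 in siBACH1 and 81.4% ± 2.2 in siCont libraries of the lactate transporter pair, and 77.8% ± 1.07 in sgBACH1 and 82.1% ± 3.49 in sgCont libraries. In each of these shares the siBACH1 and siCont libraries were separate, whereas among the knockout libraries only the share of *PFKP* was separate. Of *PDK1*, *PDK2* and *PDK3* RNA together, *PDK1* made up 44.3% ± 5.78 in siBACH1 and 55.4% ± 11.2 in siCont libraries, with overlap. It made up 33.2% ± 1.13 in sgBACH1 and 45.8% ± 2.41 in sgCont libraries, without overlap. *PDK4* was left out, and with it counted the shares of *PDK1* would be smaller. *PDK4* had 22.6 to 28.4 CPM in siBACH1 and 34.2 to 51.7 CPM in siCont libraries. It had 54.5 to 64.3 CPM in sgBACH1 and 42.3 to 48.6 CPM in sgCont libraries, above *PDK1* in each of these knockout and control libraries. *ALDOA* made up 98.2% to 99.3% of aldolase RNA and *ENO1* 99.4% to 99.7% of enolase RNA in the group means.

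**Figure D4:**
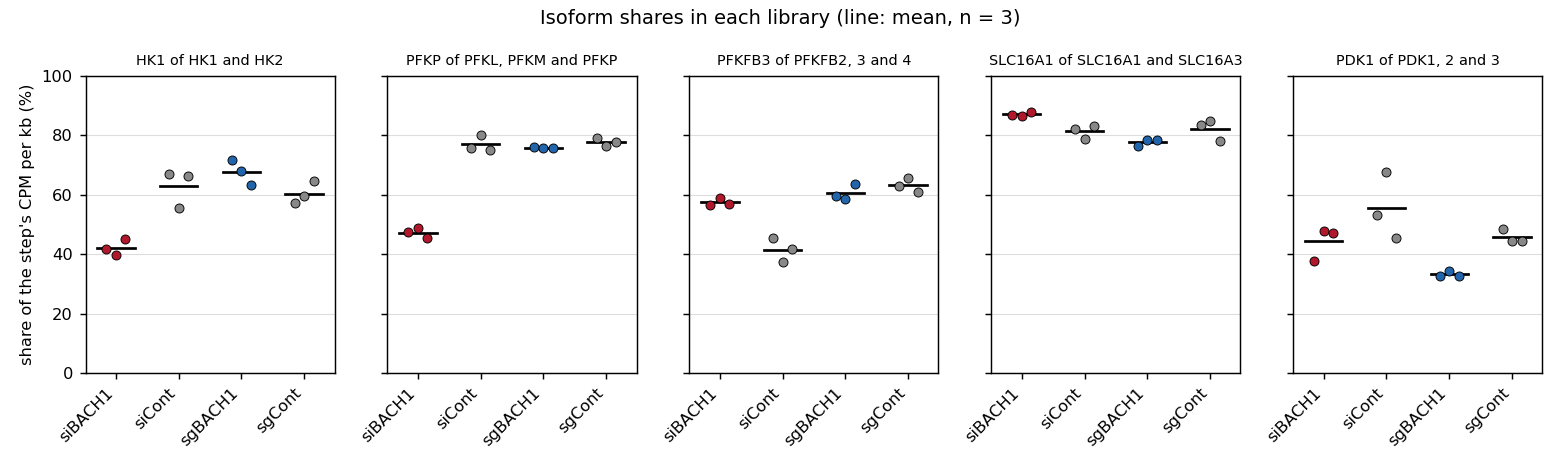
Share of a step's CPM per kb, in percent, held by *HK1*, *PFKP*, *PFKFB3*, *SLC16A1* and *PDK1* in each library of siBACH1, siCont, sgBACH1 and sgCont, with points for libraries and lines for means (n = 3). *HKDC1* and *PDK4* are not counted in the steps of *HK1* and *PDK1*. *PFKP* stands at 47.3% in siBACH1 cells, against 75.8% to 77.7% in the other groups, and *HK1* at 42.2%, against 60.4% to 67.7%.

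The neighbourhood of each gene on its chromosome moved with some of the knockout responses. Across 33 genes, the median log2 fold change of the 20 nearest tested genes lay between -0.28 and 0.67. *PGK1*, at chrX:77910739-78129296 (GRCh38), had the highest such median, 0.67, with 10 of its 20 neighbours called up and 0 called down, beside its own 0.94. *LDHA*, at chr11:18394388-18408425, had a neighbour median of 0.26 beside its own 0.27, with 5 neighbours up and 1 down. *GPI* had a neighbour median of 0.23 beside its own 0.45, with 5 up and 0 down. *SLC2A1* had 0.26 beside 1.58, *PKM* -0.010 beside 0.50 and *SLC16A3* -0.13 beside 0.39, with 2, 2 and 1 neighbours up. Other called genes also went against their neighbours. *ENO2* had -0.18 beside its own 0.92, with 1 up and 6 down, and *PDP1* 0.17 beside its own -0.63, with 4 up and 1 down. In the siRNA comparison *PDP1* had the lowest neighbour median, -0.64, with 8 of 20 called down, beside its own -0.57. The part of the neighbourhood in these responses was not tested.

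**Figure D5:**
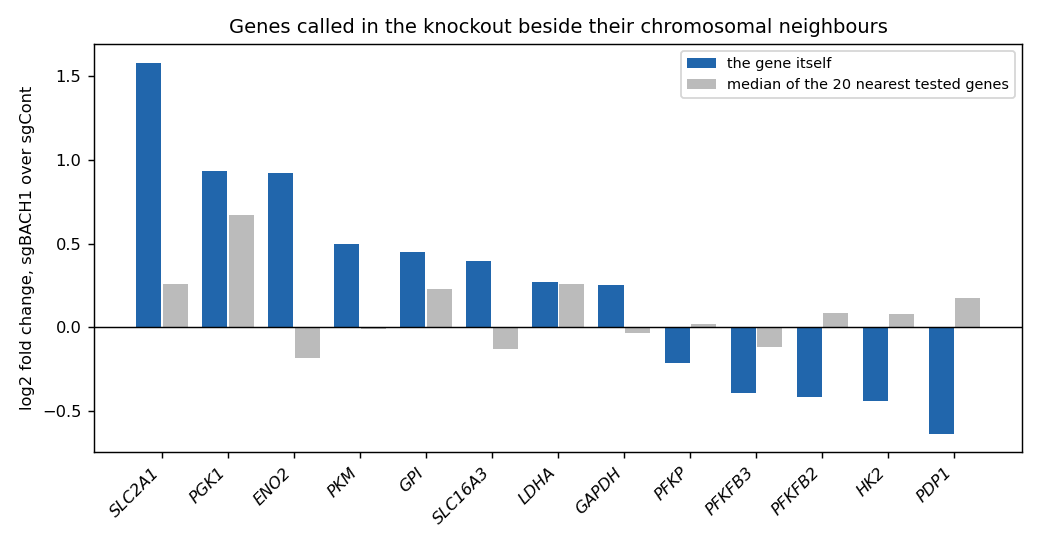
Log2 fold change of sgBACH1 over sgCont for the 13 genes called in the knockout (blue bars) and the median over the 20 nearest tested genes on the same chromosome (grey bars). The grey bar comes close to the blue bar for *LDHA* (0.26 and 0.27) and reaches 0.67 for *PGK1*.

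Because many of these genes are known hypoxia targets, their promoters were searched for ACGTG on both strands, where CACGTG holds the letters on both. ACGTG is a form of the core letters that hypoxia-inducible factors bind, and other forms of that core were not searched. Windows are 300 bases around an annotated transcription start. Of 32 genes with a window, 19 hold ACGTG, or 59.4%, against 32.4% of the genes tested that have a window. Counted by window, 23 of 64, or 35.9%, hold it, against 21.4% of all 35116 windows. TGAGTCA, letters shared by AP-1 and much of the NRF2 and *BACH1* site, lies in 2 of the 32 genes, or 6.25%, against 4.86% of genes tested. The ACGTG letters lay in 6 of 10 genes that fell and 3 of 4 that rose with siRNA, and in 10 of 17 that did not pass. In the knockout they lay in 6 of 8 that rose and 3 of 3 that fell, and in 9 of 19 that did not pass. Windows holding the letters, 1 from each of 4 genes that moved in opposite directions, are shown, with ACGTG or CACGT in capitals. They are RefSeq sequences of GRCh38.p14, all on the plus strand, at chr11:18394313-18394612 for *LDHA*, chr17:82228792-82229091 for *SLC16A3*, chr2:74834920-74835219 for *HK2* and chr10:6202682-6202981 for *PFKFB3*.
LDHA promoter: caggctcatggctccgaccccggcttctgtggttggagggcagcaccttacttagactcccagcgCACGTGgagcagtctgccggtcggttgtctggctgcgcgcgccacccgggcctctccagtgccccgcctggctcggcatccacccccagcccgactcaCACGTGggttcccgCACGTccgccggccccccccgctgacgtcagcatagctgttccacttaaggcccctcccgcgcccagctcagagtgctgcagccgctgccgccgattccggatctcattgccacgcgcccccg
SLC16A3 promoter: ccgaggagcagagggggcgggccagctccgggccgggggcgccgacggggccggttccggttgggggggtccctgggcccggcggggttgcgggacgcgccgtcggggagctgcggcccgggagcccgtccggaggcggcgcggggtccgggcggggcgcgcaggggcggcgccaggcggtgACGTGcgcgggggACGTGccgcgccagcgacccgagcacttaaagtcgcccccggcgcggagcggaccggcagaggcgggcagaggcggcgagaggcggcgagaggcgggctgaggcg
HK2 promoter: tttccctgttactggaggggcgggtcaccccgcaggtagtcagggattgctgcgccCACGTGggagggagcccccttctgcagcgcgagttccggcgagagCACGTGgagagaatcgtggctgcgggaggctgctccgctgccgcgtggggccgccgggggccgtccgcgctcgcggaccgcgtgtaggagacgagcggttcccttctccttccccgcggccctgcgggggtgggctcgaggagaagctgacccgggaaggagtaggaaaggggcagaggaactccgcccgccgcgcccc
PFKFB3 promoter: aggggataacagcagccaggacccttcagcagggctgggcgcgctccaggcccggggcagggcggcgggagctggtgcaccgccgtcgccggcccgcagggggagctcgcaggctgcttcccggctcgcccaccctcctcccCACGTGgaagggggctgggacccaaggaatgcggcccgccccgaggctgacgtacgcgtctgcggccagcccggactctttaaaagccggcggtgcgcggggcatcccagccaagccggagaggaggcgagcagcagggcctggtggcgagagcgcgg
In these windows *LDHA* holds 3 runs of capitals, *SLC16A3* and *HK2* hold 2 each and *PFKFB3* holds 1, so genes that fell and genes that rose with siRNA carry the same letters. The other *HK2* window holds 2 further runs, while the other windows of *LDHA*, *SLC16A3* and *PFKFB3* lack the letters. No window of *SLC2A1* or *PKM* holds them. A match of letters is a description and not a bound site.

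Among genes that fell with siRNA, 55.2% of all genes carry AACATTA or ACATTAA in the 3′ UTR, against 25.4% of all genes tested, 14% of those that rose and 21.2% of those that did not pass. The letters were taken from an earlier look at these data, so these shares are no independent support. They were not adjusted for 3′ UTR length, which was 223 bases for *PFKP* and 12700 for *PDK1* in the transcripts used. Why the letters were more common among the genes that fell was not tested. Of the 10 genes described here that fell, 3 carry them (*PFKP*, *PDK1* and *PDHB*), as do 2 of the 4 that rose (*HK2* and *DLAT*). *SLC2A1*, *HK1*, *PFKFB4*, *ALDOC*, *PKM*, *LDHA* and *SLC16A3* fell without them. The sites of the 3 genes that fell lie at chr10:3136664-3136691 on the plus strand, chr2:172602717-172602744 on the plus strand and chr3:58428032-58428059 on the minus strand (GENCODE 29, GRCh38), read on the strand of the gene with the matching letters in capitals.
PFKP site: cgtattattgACATTAAtacctaatcgg
PDK1 site: tgtttgggtaAACATTAgacttataaaa
PDHB site: caataaagaaAACATTAAatatttagtt
In the knockout, 24.2% of all genes that fell and 27.3% of those that rose carry the letters. *PFKP*, with the largest fall under siRNA, had a knockout log2 fold change of -0.21.

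Other isoforms and partner genes of the pathway were tested as well. Of 29 tested isoforms and partners outside the 36 genes, 2 fell and 1 rose in siBACH1 cells, or 10.3% against 23.9% of all genes tested, with a median log2 fold change of -0.031. *SLC2A6*, a lysosomal hexose transporter, fell, with 37.9, 29.2 and 31.7 CPM in the siBACH1 libraries, against 109, 47.7 and 117 CPM in the siCont libraries (log2 fold change -1.48 ± 0.28, edgeR adjusted p = 0.00504). *PDK4* fell (-0.81 ± 0.16, edgeR adjusted p = 0.00603), and *PDPR*, the regulatory subunit of the pyruvate dehydrogenase phosphatase, rose (0.60 ± 0.076, edgeR adjusted p = 0.000523). Without siCont replicate 2, 8 of the 29 rose and 7 fell, or 51.7%, against 33.9% of all genes tested. *PCK2* turned sign there, at -0.75 with all libraries, where it did not pass, and at 0.41 without siCont replicate 2, where it passed (edgeR adjusted p = 0.00194). In sgBACH1 cells 6 of 28 rose and 7 fell, or 46.4% against 23.5% of all genes tested, with a median of 0.077. Among them *BPGM*, which diverts bisphosphoglycerate, rose (0.83 ± 0.28, edgeR adjusted p = 0.0311), as did *PC*, which carboxylates pyruvate (0.72 ± 0.18, edgeR adjusted p = 0.00354). *PDK4*, which fell with siRNA, rose in the knockout (0.40 ± 0.11, edgeR adjusted p = 0.0128). *HKDC1* also rose in the knockout (0.27 ± 0.076, edgeR adjusted p = 0.0105). With siRNA *HKDC1* did not pass in all libraries (0.14 ± 0.24, edgeR adjusted p = 0.726). Without siCont replicate 2 it passed there, at 0.56 ± 0.057 (edgeR adjusted p = 4.02e-08). *EMB*, a chaperone of monocarboxylate transporters, fell (-0.66 ± 0.14, edgeR adjusted p = 0.000756), as did the more abundant *BSG* (-0.25 ± 0.075, edgeR adjusted p = 0.0147).

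Hypoxia factors and markers form a further list. Of 19 tested outside the 36 genes, 6 fell and 2 rose in siBACH1 cells, or 42.1% against 23.9% of all genes, with a median log2 fold change of -0.28, and 1 fell and 5 rose in sgBACH1 cells, or 31.6% against 23.5%, with a median of 0.15. *EGLN3*, an oxygen-sensing prolyl hydroxylase, fell with siRNA (-0.97 ± 0.21, edgeR adjusted p = 0.0102) and rose with knockout (0.93 ± 0.29, edgeR adjusted p = 0.0223). *CA9*, a carbonic anhydrase of hypoxic cells, fell in both, with 15.5, 14.3 and 15.2 CPM in the siBACH1 libraries, against 77.4, 39.6 and 71.5 CPM in the siCont libraries (-2.07 ± 0.22, edgeR adjusted p = 0.000199), and with 40.5, 33.7 and 35.1 CPM in the sgBACH1 libraries, against 88.8, 87.6 and 84.1 CPM in the sgCont libraries (-1.25 ± 0.11, edgeR adjusted p = 2.72e-09). *DDIT4* fell with siRNA (-1.99 ± 0.51, edgeR adjusted p = 0.0207), with siCont replicate 2 far above the rest as given above, and without that library its log2 fold change was -0.92 ± 0.079 (edgeR adjusted p = 3.40e-09). Without siCont replicate 2, 6 of the 19 fell and 5 rose, or 57.9% against 33.9% of all genes tested, with a median of -0.18. With siRNA *VEGFA* was at -0.046 with all libraries and did not pass, and at 0.92 without siCont replicate 2, where it passed (edgeR adjusted p = 3.12e-08). In the knockout it rose (0.64 ± 0.13, edgeR adjusted p = 0.00044). *ANGPTL4* was called up in the knockout at 3.66, 2.32 and 2.96 CPM in sgBACH1 libraries, against 0.054, 0 and 0.12 CPM in sgCont libraries. Summed over this list, levels ranged from 836.5 to 860.1 CPM in sgBACH1 libraries and from 805 to 826 CPM in sgCont libraries.

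None of the citrate cycle enzymes passed the test with siRNA in all libraries. Of 16, 0 were called in siBACH1 cells by edgeR and 0 by DESeq2, while 2 had an unadjusted p below 0.05 and the median log2 fold change was -0.068. Without siCont replicate 2, 3 of the 16 rose and 0 fell, or 18.8%, against 33.9% of all genes tested. In sgBACH1 cells 2 rose and 2 fell, or 25% against 23.5% of all genes tested, with a median of 0.0037. *IDH3G*, an isocitrate dehydrogenase subunit, rose (0.60 ± 0.12, edgeR adjusted p = 0.000363), and *CS*, citrate synthase, fell (-0.41 ± 0.079, edgeR adjusted p = 0.000398).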

How the data were processed

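Raw counts of reads per gene were deposited by the authors, with a table for each experiment. HTSeq 0.9.1 and SAMtools were used with genome hg19, per the submitters' processing notes. Not given in the sources used here are the aligner, counting mode and strand setting, so overlapping and antisense genes may share reads. Of 57820 identifiers, 47 pseudoautosomal Y rows, all at 0, were left out, and symbols came from a reference table or GENCODE 29. Exon lengths and positions are GENCODE 29 on GRCh38, not the build of the counts.

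Tests used edgeR 4.0.16 (R 4.3.3) with TMM scaling, the filterByExpr filter (minimum count 10) and quasi-likelihood tests, two-sided. P-values were adjusted by Benjamini-Hochberg over every gene in the fit and called below 0.05. SE is the log2 fold change divided by the square root of F. CPM use TMM factors over all 12 libraries. The exact test used log2(CPM + 1). The steps were tested on simulated data, where small changes were recovered less often than large ones and false calls exceeded the nominal share, most of all with siRNA. Alternatives were DESeq2 1.42.0, upper-quartile scaling, no filter, 1 fit of 12 libraries, a replicate block and leaving out each library.

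The 36 genes and the lists were chosen with earlier results of these data known. All 36 are accounted for. Values in each library are given for genes called in either comparison and for the most abundant form of each step among the 36. Other lists are named mainly by their largest called changes. Counting limits precision at low levels, since genes under 5 CPM rest on few reads.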

Additional observations from a re-analysis of the deposited data

Results flagged for a closer look

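The response to siRNA minus the response to knockout, on the log2 scale, differed from 0 for 13 of the 36 genes in edgeR's test of the difference over all 12 libraries. It was below 0 for *SLC2A1* at -2.27 ± 0.19 (edgeR adjusted p = 1.82e-07), *HK1* at -0.79 ± 0.15 (edgeR adjusted p = 0.000929), *GPI* at -0.39 ± 0.11 (edgeR adjusted p = 0.021), *PFKP* at -1.50 ± 0.10 (edgeR adjusted p = 1.84e-08), *PFKFB4* at -2.36 ± 0.62 (edgeR adjusted p = 0.00967), *ALDOC* at -1.18 ± 0.32 (edgeR adjusted p = 0.0121) and *PGK1* at -1.26 ± 0.13 (edgeR adjusted p = 3.08e-06). It was also below 0 for *PKM* at -0.72 ± 0.088 (edgeR adjusted p = 1.25e-05), *LDHA* at -0.84 ± 0.086 (edgeR adjusted p = 1.97e-06), *SLC16A3* at -0.94 ± 0.15 (edgeR adjusted p = 0.000252) and *PDHB* at -0.50 ± 0.13 (edgeR adjusted p = 0.00962). It was above 0 for *HK2* at 0.88 ± 0.19 (edgeR adjusted p = 0.00218) and *PFKFB3* at 0.91 ± 0.15 (edgeR adjusted p = 0.000203). In *HK1*, *PFKFB4*, *ALDOC* and *PDHB* the change was called with siRNA and the knockout value did not pass the test, and in *GPI* and *PGK1* the reverse held.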

How the results depend on the processing

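None of the 36 genes changed sign at a called value under any alternative run, while *PCK2* and *VEGFA*, outside them, did so without siCont replicate 2. Counts of genes called moved by over 1.5 times in the siRNA comparison when 1 library was left out. All genes called ranged from 2002 to 5121, against 3481 with all libraries, those called up from 813 to 2513, against 1586, and those called down from 1189 to 2608, against 1895. Of the 36 genes, 2 to 5 were then called up, against 4, and 6 to 11 called down, against 10. The highest counts of all genes came without siCont replicate 2 and the lowest without siBACH1 replicate 1. In the knockout, 2 to 5 of the 36 genes were called down, against 5. The calls that ended in this way are named beside each gene in the report. Under every alternative, 8 of 14 siRNA calls, 8 of 13 knockout calls and 12 of 13 calls of the difference were kept. The exception in the difference was *GPI*, lost without siBACH1 replicate 3, siCont replicate 1, sgBACH1 replicate 2 or 3, or sgCont replicate 1 or 2, at edgeR adjusted p from 0.0511 to 0.0598. DESeq2 called 15 of the 36 genes with siRNA, *PGK1* being the addition. Without a filter on low counts, *PGK1*, *PFKFB2* and *PDP1* were added and *DLAT* was lost. With a replicate block, 3196 genes were called with siRNA and 3530 in the knockout. Of the 36 genes *DLAT* lost its siRNA call, with edgeR adjusted p = 0.0632, and in the knockout *ENO2* was lost and *FBP1* and *MPC1* were added. The replicate numbers mark no known pairing: correlations of deviations between same-numbered libraries were 0.0513, 0.0351 and 0.00699 with siRNA and -0.000351, 0.0331 and 0.0436 in the knockout. Calls were gained when 1 library was left out for *PGK1* and *MPC1* with siRNA, for *PFKFB4*, *FBP1*, *PDK2*, *MPC1* and *MPC2* in the knockout and for *FBP1*, *ENO2* and *PDK3* in the difference. Why these calls moved was not tested. With 3 libraries a group, changes of low genes such as *PFKFB4*, *ENO2* and *PDK3* are limited by depth, and RNA levels do not measure enzyme activity, lactate or the rate of glycolysis.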
